A study of Mus musculus with 4 samples.

Results

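Pitx1, Tbx4, Tbx5 and Isl1 are the transcription factor genes by which forelimb and hindlimb are told apart in the mouse embryo. Their tags were taken from a table of tag counts by the Ensembl identifier at the end of each tag's annotation, which gave 57 tags for the 4 genes, 47 of them with a count, out of 733961 tags and 17677 Ensembl genes. Counts came from DGE-SAGE, in which cDNA is cut by NlaIII at CATG and the 17 bases beside the cut are sequenced as a tag. In principle a tag is counted once per captured cDNA whatever the length of the transcript, but tags of the same gene came from several CATG sites here. Forelimbs and hindlimbs of CD1 embryos at E14.5 were each sampled as 2 biological replicates, which gave 4 libraries. No treatment or engineered allele is named in the labels, and the labels do not give the number of embryos in a sample.

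Limb type is set early in the bud. Tbx5 is a T-box factor expressed in the forelimb field, where it starts outgrowth by switching on Fgf10, and it is also known from the heart. Its close relative Tbx4 is expressed in the hindlimb field together with the paired-type homeodomain factor Pitx1, which acts upstream of Tbx4 and gives the hindlimb its shape, while the LIM homeodomain factor Isl1 acts in the hindlimb field before the bud grows out and is later known from motor and sensory neurons.

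Totals ran from 1829647 to 5325279 counts per library, and forelimb replicate 2 was the smallest. In CPM, the count scaled to library size with edgeR's TMM factors, 1 count was worth 0.618 there and 0.222 to 0.255 CPM in the others. The mean GC content of the counted tags was 40.6% and 40.2% in the forelimb libraries and 46.3% and 50.4% in the hindlimb libraries, so that tag composition and limb type cannot be told apart without a model of the tags. Of 8 limb mesenchyme markers all were in the table. Twist1 lay between 681 and 961 CPM and Prrx1 between 182 and 276 CPM in all 4 libraries. The 7 tested markers summed to between 1429 and 1604 CPM. Of the 7 tested, Prrx2 and Msx1 were called in the hindlimb direction, Hoxd11 in that of forelimb, beside 16.7% called of all genes and clusters tested, and 0 passed once tag sequence was modelled.

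Pitx1, Tbx4 and Tbx5 each differed between the limb types in the direction known for the early bud, and Isl1 was near the limit of detection in both. By the sums of their deposited tags Pitx1 was the most unequal of the 4, with its forelimb level under 1% of its hindlimb level. Forelimb Tbx4 stood at 11.7% of the hindlimb level and hindlimb Tbx5 at 7.24% of the forelimb level. The Pitx1 percentage was 4.33% from tags under 40% GC, a boundary set after the values were seen. The proportions of Pitx1 tags did not pass a test of difference between the limb types. With tag sequence modelled, Pitx1 stood at 2.65%, Tbx4 at 10.8% and Tbx5 at 5.09%. The tags that represent each gene in the results are printed with the gene, with the CATG site in capitals and the 17 counted bases in lower case, 5′ to 3′. Positions are from GENCODE M21 on GRCm38.

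**Figure D1:**
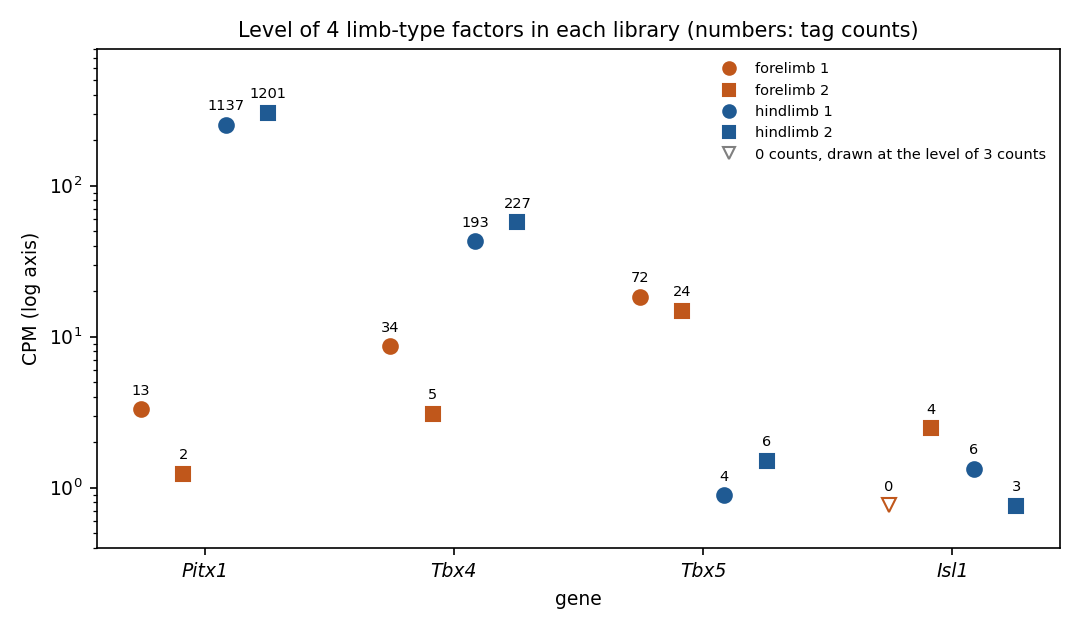
Level of Pitx1, Tbx4, Tbx5 and Isl1 in each library, in CPM on a log axis, with the tag count above each point. Orange points are forelimb, blue points hindlimb, and the open triangle is a count of 0 drawn at the level of 3 counts. Both hindlimb points of Pitx1 and Tbx4 lie above both forelimb points, the reverse holds for Tbx5, and the points of Isl1 overlap.

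Pitx1 lies at chr13:55825051-55836192 on the minus strand and is protein coding. It had 18 tags, all with a count. The tags below carry most of its counts and its forelimb signal. All lie in exon 3. The 2 coding tags are sense tags of its coding part, and the inner 3′ UTR tag is a sense tag of the site before the last. The last-site tag is the sense tag of the last NlaIII site, 37 bases from the 3′ end, and the antisense tag is read outward from that same site on the other strand.
Pitx1 coding tag, chr13:55826226-55826246: CATGtcgccgggcgcctgccc
Pitx1 upstream coding tag, chr13:55826286-55826306: CATGcccaactcgggcctcaa
Pitx1 last-site tag, chr13:55825071-55825091: CATGtacgtctattaaaacca
Pitx1 inner 3′ UTR tag, chr13:55825687-55825707: CATGgcggggagaagccagtg
Pitx1 antisense tag, chr13:55825088-55825108: CATGgacaagttgatatagac

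Pitx1 was counted 13 and 2 times in forelimb replicates 1 and 2, and 1137 and 1201 times in hindlimb replicates 1 and 2. These are 3.31 and 1.24 CPM in forelimb against 253 and 303 CPM in hindlimb. Both hindlimb libraries were far above both forelimb libraries. The mean was 2.27 ± 1.47 CPM in forelimb and 278 ± 35.4 CPM in hindlimb (SD, n = 2 each), a log2 fold change of 6.72 ± 0.47 (SE), with an adjusted p of 3.5e-07 in edgeR's quasi-likelihood test. It had the smallest p of the 13718 genes and clusters tested, and 16.7% of these were called, 9.58% in the direction of hindlimb and 7.08% in that of forelimb. Non-overlap alone was common, since the limb types did not overlap in 62.8% of the genes and clusters tested.

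Forelimb Pitx1 came to 0.818% ± 0.528 (SD, n = 2) of the hindlimb mean. It was 1.19% in forelimb replicate 1 (Wilson 95% interval 0.697% to 2.04%) and 0.445% in replicate 2 (0.122% to 1.62%). The intervals overlap, so a difference between the forelimb replicates was not detectable at this depth. Intervals here and below cover counting error only, since tags are PCR products without molecular identifiers. In whole-limb RNA, fewer cells with a transcript and less transcript per cell cannot be told apart.

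All forelimb counts of Pitx1 lay in 6 tags that were also counted in hindlimb, where they held 85.8% and 84.0% of the counts, but the order of these tags was not the same. The coding tag, of 88.2% GC, was counted 1 and 0 times in forelimb and 365 and 486 times in hindlimb. The upstream coding tag, of 64.7% GC, was counted 1 and 0 times against 300 and 283. The last-site tag, of 29.4% GC, was counted 5 and 0 times against 149 and 62. In hindlimb the coding tags were thus well above the last-site tag, whereas in forelimb replicate 1 the last-site tag was the most counted.

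The antisense tag, of 35.3% GC, was counted 4 and 2 times in forelimb and 75 and 64 times in hindlimb, and it held both counts of forelimb replicate 2. Tags under 40% GC, a boundary set after the values were seen, made up 9 of 13 and 2 of 2 forelimb counts. In hindlimb they made up 224 of 1137 and 126 of 1201, which is 19.7% and 10.5%. Computed from those tags alone the forelimb level was 4.33% of the hindlimb level, and from tags of 40% GC or more it was 0.215%, from 4 forelimb counts. By these few forelimb counts the percentage of Pitx1 thus varied with tag composition, although its tag proportions did not pass the test given below. Forelimb and hindlimb libraries differed in the GC content of their tags.

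**Figure D2:**
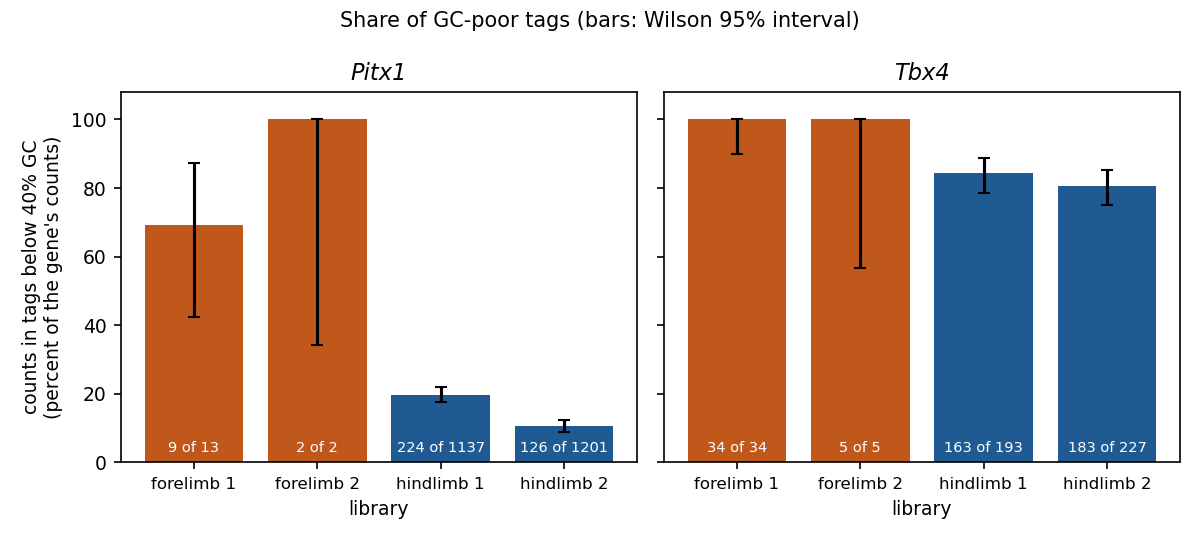
Share of the counts of Pitx1 (left) and Tbx4 (right) that lie in tags under 40% GC, per library, in percent, with Wilson 95% intervals and the counts printed in the bars. The forelimb bars of Pitx1 stand at 9 of 13 and 2 of 2 counts against 224 of 1137 and 126 of 1201 in hindlimb, while in Tbx4 all 4 bars are above 80%.

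Of the 18 Pitx1 tags, 12 were counted in hindlimb alone and 6 in both limb types. Among single tags, 4.59% of the 37805 tested were called higher in hindlimb and 1.64% higher in forelimb. The 8 tested Pitx1 tags were all called higher in hindlimb, with log2 fold changes between 3.85 and 9.0 and adjusted p between 0.0065 and 0.036 in edgeR's quasi-likelihood test. The lowest was the antisense tag at 3.85 ± 0.71 and the next the last-site tag at 4.80 ± 0.89. The inner 3′ UTR tag, counted 0 times in forelimb and 58 and 94 times in hindlimb, was at least 33.2-fold higher in hindlimb against 3 counts over the forelimb group. These tags share their gene and are not replicates of each other. All 8 passed the filter on low counts only through hindlimb, so their shared direction was largely fixed by that filter.

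Whether the proportions of Pitx1 tags differed between limb types was tested over its 8 tested tags with edgeR's diffSpliceDGE. The gene did not pass, with an adjusted p of 0.146, where 10.4% of the 8694 genes tested did. Within that test the change of the antisense tag relative to the gene was -1.94 on the log2 scale, with an adjusted p of 0.0724, and that of the coding tag was 1.55, with an adjusted p of 0.235.

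Pitx1 was read in both directions. Its 6 sense tags held 82.6% and 83.1% of the hindlimb counts, its 11 antisense tags 12.8% and 10.1%, and 1 tag with no exact match to a transcript the rest, with 52 and 82 hindlimb counts. At each of the 11 sites with an antisense tag the table also held the sense tag, and 8 of the 11 had more sense than antisense counts in hindlimb. At the last site the sense tag had 149 and 62 hindlimb counts and its antisense partner 75 and 64. The antisense noncoding gene Gm47071 overlaps Pitx1 at chr13:55826250-56084849 on the plus strand, and 4 of the 11 antisense tags match its transcripts, with 22 and 15 hindlimb counts and 0 in forelimb. From sense tags alone, forelimb Pitx1 was 0.387% of hindlimb, from 7 forelimb counts.

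A further 7 sense tags match Pitx1 but carry no gene in the deposited annotation. They were counted 36 and 57 times in hindlimb and 0 times in both forelimb libraries, so they add to the hindlimb side alone. With every tag regrouped by its GENCODE match, Pitx1 had 7 and 0 forelimb counts against 975 and 1055 hindlimb counts, and a log2 fold change of 7.61 (edgeR).

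Tbx4 lies at chr11:85886422-85916097 on the plus strand and is protein coding. Its 13 tags all match its own transcripts in the sense direction, and 23 CATG sites lie in its longest transcript. The tags below, from the last NlaIII site (site 1) to site 4 counted from the 3′ end, all lie in the 3′ UTR in exon 9 and hold most of its counts.
Tbx4 last-site tag, chr11:85916047-85916067: CATGgacattttgttttgcat
Tbx4 site 2 tag, chr11:85915831-85915851: CATGtcaaattcagctttgct
Tbx4 site 3 tag, chr11:85915755-85915775: CATGctgaatagctatttata
Tbx4 site 4 tag, chr11:85915567-85915587: CATGcctggagcgaggatgcc

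Tbx4 was counted 34 and 5 times in forelimb replicates 1 and 2, and 193 and 227 times in hindlimb. These are 8.66 and 3.09 CPM against 42.9 and 57.2 CPM, and the limb types did not overlap. The log2 fold change was 2.95 ± 0.47 with an adjusted p of 0.00102 in edgeR's quasi-likelihood test, rank 88 by p. Forelimb Tbx4 came to 11.7% ± 7.87 (SD, n = 2) of the hindlimb mean.

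It was 17.3% in forelimb replicate 1 (12.4% to 24.2%) and 6.17% in replicate 2 (2.64% to 14.4%). By the sums of all deposited tags, the interval of Tbx4 lay above that of Pitx1 in each forelimb library. These sums differ in tag composition, since all forelimb Tbx4 counts lay in tags under 40% GC. From such tags alone, forelimb Pitx1 was 4.33% of hindlimb and forelimb Tbx4 14.3%. Forelimb replicate 2 held only 2 and 5 of these counts, and no interval was computed for them. No test across replicates was made of the difference between Tbx4 and Pitx1.

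Nearly all forelimb Tbx4 was 1 tag. The last-site tag was counted 34 and 3 times in forelimb and 100 and 156 times in hindlimb, so that it held 34 of 34 counts in forelimb replicate 1 and 51.8% and 68.7% of the hindlimb counts. In forelimb replicate 2 it held 3 of 5 counts, 60% (Wilson 23.1% to 88.2%), which lies between the hindlimb shares. The site 2 tag was counted 0 and 2 times against 43 and 18, the site 3 tag 0 and 0 against 20 and 9, and the site 4 tag 0 and 0 against 6 and 18. Without the last-site tag, forelimb Tbx4 was 2 counts against 164 in hindlimb, or 3.20% of the hindlimb level, and from the last-site tag alone it was 17.1%.

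No tag of the table that differs from a counted Tbx4 tag by 1 base had more than 1 count. The 6 coding tags of Tbx4 were counted 0 times in forelimb and 15 and 24 times in hindlimb. The difference in tag proportions did not pass diffSpliceDGE over the 2 tags deep enough to test, with an adjusted p of 0.823. Neither tag passed alone: the last-site tag was at 2.40 ± 0.68 with an adjusted p of 0.0627, and the site 2 tag at 3.94 ± 1.30 with an adjusted p of 0.0896, both in edgeR's quasi-likelihood test.

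**Figure D3:**
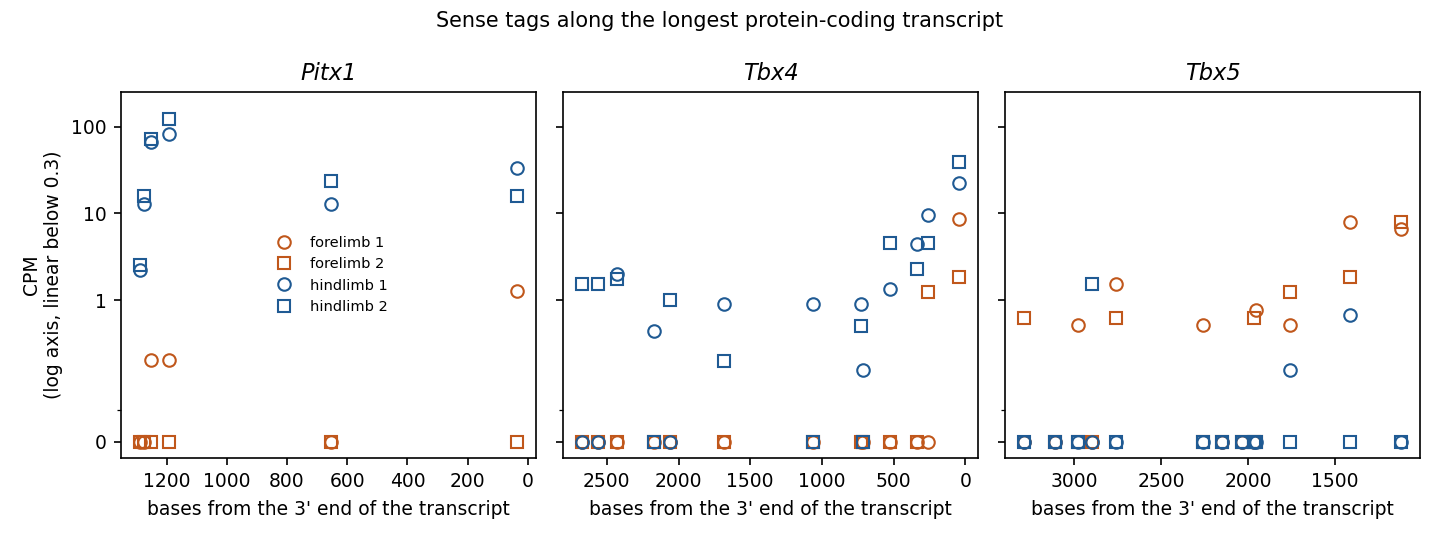
Level of each sense tag of Pitx1, Tbx4 and Tbx5 in each library against its distance from the 3′ end of the longest protein-coding transcript, in bases, with CPM on a log axis that is linear below 0.3. Forelimb is orange and hindlimb blue, replicate 1 round and replicate 2 square. The forelimb points of Tbx4 above 0 lie at its last site and site 2, at 45 and 261 bases, while its hindlimb points reach to 2673 bases.

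Tbx5 lies at chr5:119832668-119885219 on the plus strand and is protein coding. It had 16 tags, 12 with a count, of which 9 were counted in forelimb alone, 2 in both limb types and 1 in hindlimb alone. The tags below are the most counted in forelimb, the only one counted in hindlimb alone, and a tag of its 3′ UTR that the deposited annotation gives to no gene.
Tbx5 site 4 tag, chr5:119884094-119884114: CATGtgagatgtctacgaacg
Tbx5 site 5 tag, chr5:119883799-119883819: CATGttccccgattgtttctc
Tbx5 exon 5 tag, chr5:119841780-119841800: CATGccggggcgcctttacgt
Tbx5 site 2 tag, given to no gene, chr5:119885094-119885114: CATGagcattctatgtgatct

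Tbx5 was counted 72 and 24 times in forelimb replicates 1 and 2, and 4 and 6 times in hindlimb. These are 18.3 and 14.8 CPM against 0.889 and 1.51 CPM. Both forelimb libraries were above both hindlimb libraries, and the forelimb replicates were closer to each other than for Tbx4. The log2 fold change was -3.77 ± 0.69 with an adjusted p of 0.00246 in edgeR's quasi-likelihood test, rank 202 by p. Hindlimb Tbx5 came to 7.24% ± 2.66 (SD, n = 2) of the forelimb mean, 5.36% in replicate 1 (2.09% to 13.8%) and 9.12% in replicate 2 (4.18% to 19.9%).

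The hindlimb counts of the replicates came from different tags. The site 4 tag was counted 26 and 13 times in forelimb and 0 times in both hindlimb libraries, at least 19.9-fold higher in forelimb against 3 counts over the hindlimb group. It was the only Tbx5 tag deep enough to test and was called higher in forelimb, at -7.68 ± 1.46 with an adjusted p of 0.0285 in edgeR's quasi-likelihood test. This tag passed the filter on low counts only through forelimb, so its direction was largely fixed by that filter. The site 5 tag was counted 31 and 3 times in forelimb and 3 and 0 times in hindlimb, which is 3 of the 4 counts of hindlimb replicate 1.

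All 6 counts of hindlimb replicate 2 were of the exon 5 tag, of 70.6% GC, which was counted 0 times in the other 3 libraries. From the 3′ UTR tags alone hindlimb Tbx5 was 2.73% of forelimb, with 3 hindlimb counts, and from the coding tags it was 27.6%, with 7. The site 2 tag that has no gene in the deposited annotation was counted 4 and 23 times in forelimb and 0 times in hindlimb. With tags regrouped by GENCODE match, Tbx5 had 83 and 44 forelimb counts against 8 and 6, and a log2 fold change of -3.81.

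Isl1 lies at chr13:116298281-116309689 on the minus strand and is protein coding. It had 10 tags, 4 with a count, and the 2 printed here hold most of its few counts, both from the 3′ UTR in exon 6.
Isl1 site 2 tag, chr13:116298846-116298866: CATGccctgtagctggtttct
Isl1 site 3 tag, chr13:116299256-116299276: CATGggattttactagaataa

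Isl1 was counted 0 and 4 times in forelimb replicates 1 and 2, and 6 and 3 times in hindlimb. These are 0 and 2.47 CPM against 1.33 and 0.756 CPM, and the 0 allows up to 0.764 CPM. The limb types overlapped, with the highest and the lowest value both in forelimb. The forelimb mean was 1.24 ± 1.75 CPM and the hindlimb mean 1.05 ± 0.408 CPM (SD, n = 2 each), a forelimb level of 118% ± 167 of hindlimb. Isl1 did not pass the filter on low counts. Fitted without that filter it was at -0.09 ± 2.42, with an adjusted p of 0.990 in edgeR's quasi-likelihood test, so a difference was not detectable at this depth.

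The site 2 tag of Isl1 was counted 0 times in forelimb and 5 and 3 times in hindlimb. The site 3 tag was counted 0 and 2 times in forelimb and 1 and 0 times in hindlimb. The other 2 forelimb counts were 1 each in 2 further tags. Isl1 counts in the limb types thus shared 1 tag of 4.

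Because tag GC content followed limb type, the comparison was repeated with an offset for tag sequence. Sequence effects were fitted for each library from how tags within a gene differ, so that the level of a gene does not enter their fit. The offset of a gene averages these effects over its tags. Its weights use the counts of each tag and of the gene, so the gene's own counts do enter there. With that offset 0.525% of the genes and clusters tested were called, 57 in the hindlimb direction and 15 in the forelimb direction, and the median log2 fold change of all genes moved from -0.03 to 0.12. Pitx1, Tbx4 and Tbx5 were among those called. Pitx1 moved to 5.24 ± 0.37, Tbx4 to 3.21 ± 0.43 and Tbx5 to -4.30 ± 0.67, with adjusted p of 8.3e-08, 0.000776 and 0.0036 in edgeR's quasi-likelihood test.

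Expressed as low over high limb type, these fits put forelimb Pitx1 at 2.65% where the fit without an offset gave 0.95%, forelimb Tbx4 at 10.8% against 12.9%, and hindlimb Tbx5 at 5.09% against 7.33%. For the coding tag of Pitx1 the model gave a hindlimb excess of 5.13 log2 units from its sequence alone, and for the last-site tag a hindlimb deficit, at -0.67. The gap between Pitx1 and the other 2 factors was thus smaller with the offset, and the order of the 3 percentages was the same.

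**Figure D4:**
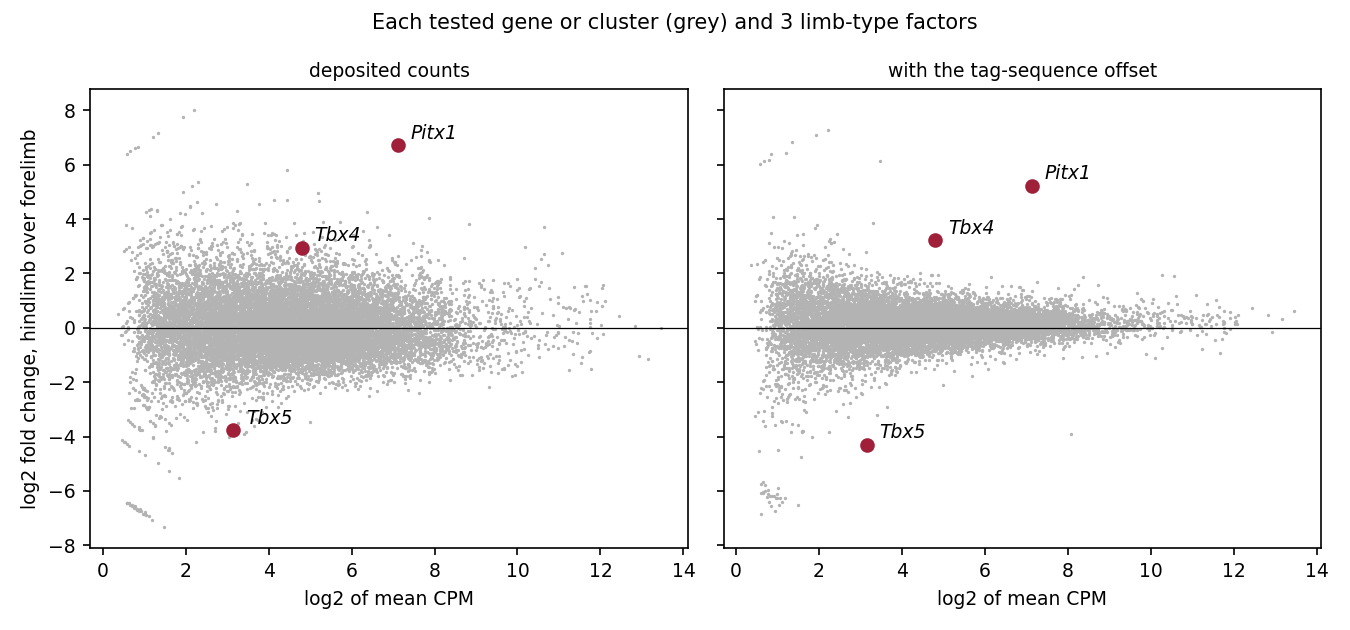
Log2 fold change of hindlimb over forelimb against the log2 of mean CPM for each gene or cluster tested (grey), from the deposited counts on the left and with the tag-sequence offset on the right. Pitx1, Tbx4 and Tbx5 (red) stand at 6.72, 2.95 and -3.77 on the left and at 5.24, 3.21 and -4.30 on the right, where the other genes lie closer to 0.

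Genes of the early limb bud pathway in which the 4 factors act were then read from the same fit. Of 20 tested, 3 were higher in hindlimb and 1 in forelimb, beside 9.58% and 7.08% called in those directions over all genes. The median log2 fold change was 0.49 beside -0.03 over all genes. Higher in hindlimb were Hand2, a posterior bud factor, at 1.79, the homeodomain cofactor Pbx2 at 1.09 and the retinoic acid receptor Rarb at 1.40. Meis1, a proximal limb factor, was higher in forelimb at -1.86. None of the 4 passed with the tag-sequence offset.

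Among 8 tested relatives of the factors, 2 were higher in forelimb and 0 in hindlimb, beside 7.08% and 9.58% of all genes, with a median log2 fold change of 0.19. They were the T-box genes Tbx18 at -2.24 and Tbx3 at -1.95. Neither Tbx18 nor Tbx3 passed with the offset.

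Of 4 tested Hox genes known from the hindlimb, 3 were called higher in hindlimb, beside 9.58% of all genes, with a median of 3.78. Hoxc12, also listed, was counted 0 and 0 times in forelimb and 0 and 2 times in hindlimb and was not tested. Hoxc10 was counted 5 and 2 times in forelimb and 78 and 77 times in hindlimb, at 3.83 ± 0.66 with an adjusted p of 0.00168 in edgeR's quasi-likelihood test, and it also passed with the offset. Hoxb9 was counted 3 and 0 times against 36 and 25, and Hoxc9 0 and 0 times against 15 and 12. Hoxc10, Hoxb9 and Hoxc9 passed the filter on low counts only through hindlimb, so their direction was largely fixed by that filter. Neither Hoxb9 nor Hoxc9 passed with the offset, with adjusted p of 0.154 and 0.362 in edgeR's quasi-likelihood test. Of 4 tested Hox genes known from the forelimb 0 were called, beside 7.08% of all genes called higher in forelimb, with a median of -1.65. Hoxc6 came nearest, at 5.09 and 3.71 CPM in forelimb against 0.445 and 0 CPM in hindlimb, with an adjusted p of 0.0531 in edgeR's quasi-likelihood test.

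Tbx4 and Tbx5 are known from limb muscle connective tissue and tendon at later stages. Of 6 tested genes of those tissues, the tendon factor Scx was called higher in hindlimb at 2.77. The tendon membrane protein Tnmd was called higher in forelimb at -1.28. The other 4 were not called, where 16.7% of all genes and clusters tested were. Neither Scx nor Tnmd passed with the offset. Of 7 heart muscle markers, read because Tbx5 is also a heart gene, Nkx2-5 and Nppa had 0 counts in all 4 libraries. The 4 tested markers summed to 260 and 285 CPM in forelimb and 175 and 190 CPM in hindlimb. Of these, Sln, also known from skeletal muscle, was called higher in forelimb at -1.41, beside 7.08% of all genes and clusters tested. With the offset Sln also passed, at -1.25 with an adjusted p of 0.0262 in edgeR's quasi-likelihood test. Tnnt2 and Myh6 were at -1.06 and -1.14 and Myl4 went the other way at 0.48, none of them called.

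Neuron markers were read because Isl1 is also a neuronal gene. The 3 tested markers summed to 50.4 and 65.5 CPM in forelimb and 32.5 and 21.9 CPM in hindlimb. Of these, 0 were called, beside 16.7% of all genes and clusters tested. Pou4f1 had 0 counts in 3 libraries and Mnx1 in 3. The part of these cells in the Isl1 counts was not tested. Of 5 markers of lung epithelium, where Tbx4 and Tbx5 are also known, 0 were matched, and the list was not analysed here.

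Within 500 kb of the start of Pitx1 lie 24 protein-coding genes, of which 16 were tested and 3 were called, a share near the 16.7% of all genes and clusters. They were higher in forelimb: Pcbd2 at -1.66, B230219D22Rik at -1.15 and Grk6 at -1.02. None of the 3 passed with the tag-sequence offset. None of the 4 tested neighbours of Tbx4 was called. Its T-box neighbour Tbx2, whose start lies 53.9 kb away, was at 0.96 ± 0.44 with an adjusted p of 0.140 in edgeR's quasi-likelihood test. Of the 2 neighbours of Tbx5, Tbx3 was called higher in forelimb, at 24.2 and 43.9 CPM against 10.2 and 7.06 CPM. No protein-coding gene starts within 500 kb of Isl1.

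The genes most like each factor were found by the distance between profiles of log2 CPM over the 4 libraries, each centred on its own mean, among 12059 genes. For Pitx1 they were Bcl7c, the neurotrophic factor gene Nrtn and the mitochondrial ribosomal RNA mt-Rnr2, at distances of 1.76, 2.07 and 2.10. For Tbx4 they were B4gat1, Il3ra and Caskin2, at 0.187, 0.275 and 0.285. For Tbx5 they were Pfn4, Ms4a4c and Dhx58, at 0.441, 0.553 and 0.570, all with 0 CPM in both hindlimb libraries. For Isl1, whose profile rests on 13 counts, they were A930002H24Rik, Mrtfb and Nr4a2, at 0.130, 0.283 and 0.307. Pitx1 had no gene as close as those of Tbx4 and Tbx5. The profiles were not scaled, so this distance grows with the size of a gene's difference between libraries.

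Bcl7c and Nrtn were counted from tags of 87.6% and 88.2% GC, and B4gat1, Il3ra and Caskin2 from tags of 69.0%, 64.8% and 73.4%. Of these genes like Pitx1, Tbx4 and Tbx5, mt-Rnr2 alone passed with the tag-sequence offset, whereas the factors themselves did. With only 4 libraries a profile is shared by many genes, and the likeness is a description.

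**Figure D5:**
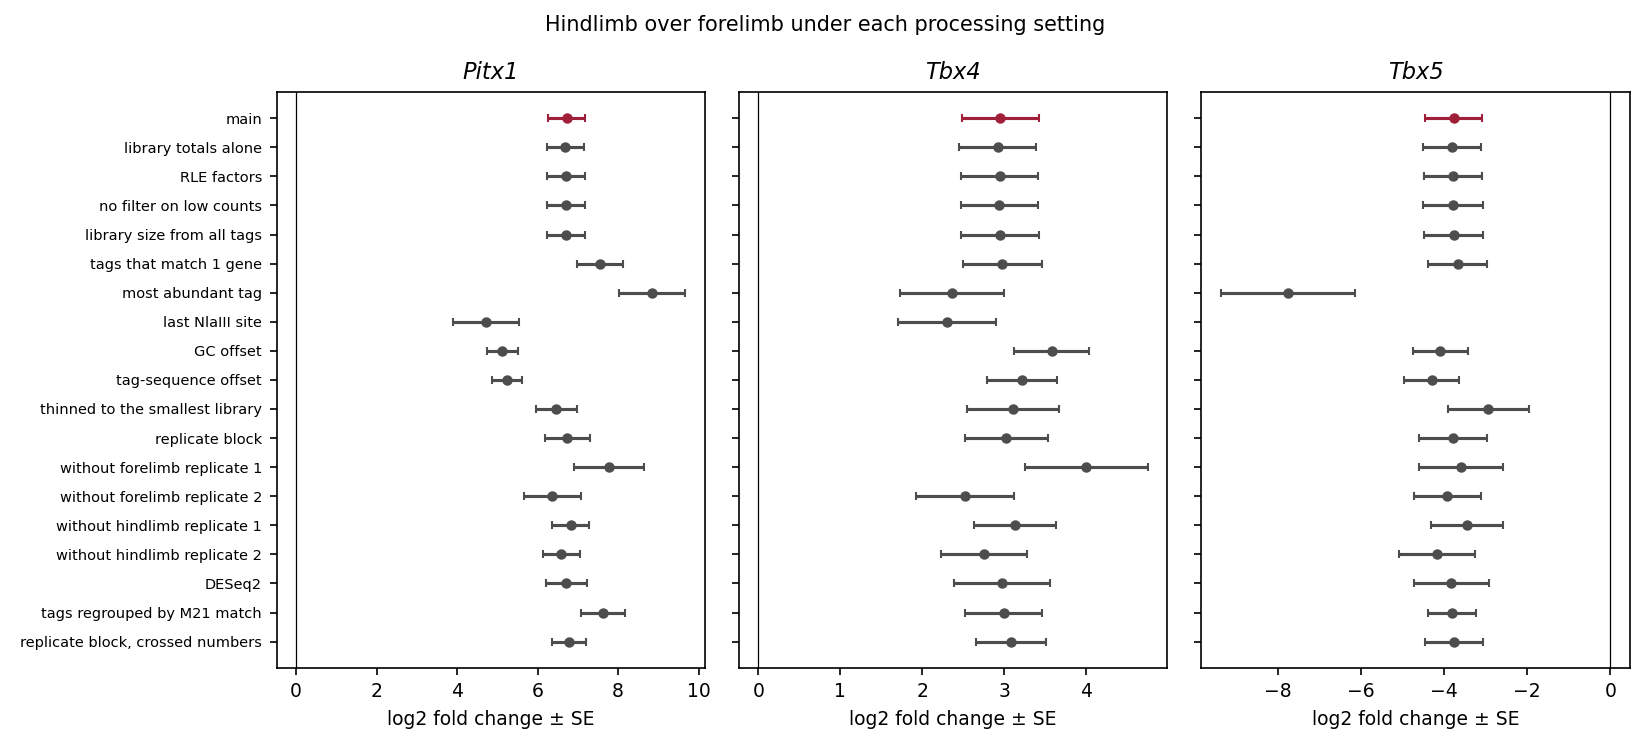
Log2 fold change of hindlimb over forelimb, with its SE, for Pitx1, Tbx4 and Tbx5 under each processing setting, the setting used in the text in red. Pitx1 lies between 4.72 and 8.85 and Tbx4 between 2.30 and 4.0, both right of 0, and Tbx5 between -7.75 and -2.93, left of 0; Tbx5 has no value from last-site tags.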

How the data were processed

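The authors deposited raw counts of 17-base tags, unnormalized, each tag with its assigned cluster or gene. Bowtie and mm9 are named per the submitters' processing notes. Its version is not given in the sources used here. Members and gene lists were chosen with earlier results of these data known.

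Counts were summed per Ensembl gene, or per cluster where no gene was given, which made 26252 features. Tags with neither, 14.8% to 18.7% of counts, stayed out of library sizes. Limb types were compared by edgeR 4.0.16 (R 4.3.3; TMM, filterByExpr, quasi-likelihood test, Benjamini-Hochberg at 0.05, 2 residual degrees of freedom). The SE is the absolute log2 fold change over the root of the F statistic. Single tags were fitted likewise. Tags were matched to GENCODE M21 transcripts beside every CATG, and 98.0% of the counts of tags of 1 gene were given to that gene by the table. The tag-sequence offset used 42831 tags of 9913 genes. The gene-level fit, not the tag fit or the offset, was tested on simulated data. Named genes were the members, the 3 most alike per member, called list members and the called neighbours. Alternatives were other normalizations, filters, tag choices and offsets, thinning, a replicate block, DESeq2 1.42.0 and leaving out each library. One gene is not reported here.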

Additional observations from a re-analysis of the deposited data

How the results depend on the processing

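Pitx1, Tbx4 and Tbx5 kept their direction and stayed called in each alternative that gave a value, 18 for Pitx1, 18 for Tbx4 and 17 for Tbx5. Without forelimb replicate 1 or 2, or hindlimb replicate 1 or 2, Pitx1 ran from 6.37 to 7.77, Tbx4 from 2.52 to 4.0 and Tbx5 from -4.16 to -3.44. Genes called higher in hindlimb and in forelimb numbered 1314 and 971, 397 and 432 with the GC offset, 57 and 15 with the tag-sequence offset, and from 583 to 1899 and from 367 to 2001 when 1 library was left out. Tags called numbered 2358, 1120 with library totals alone, 3707 with no filter, and from 2119 to 10285 when 1 library was left out; the highest counts were without hindlimb replicate 1.

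Forelimb Pitx1 as a percent of hindlimb was 0.125 from the most abundant tag and 2.68 from last-site tags, and hindlimb Tbx5 was 0 from either, the latter resting on 9 forelimb counts. Forelimb Pitx1 was 0.445 and 1.19, and forelimb Tbx4 6.17 and 17.3, without forelimb replicate 1 and 2 in turn. The cause of these shifts was not tested. Isl1 had a fitted value only without the filter and in DESeq2.

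The labels give both limb types replicate numbers 1 and 2. They do not say that a number pairs samples, so the numbers were not taken as pairs. Deviations of the same-numbered libraries from their group means correlated at -0.11 over 13718 genes. With 2 libraries per limb type, crossing the numbers only reverses the sign of that value, so it cannot decide on pairing. With the replicate block Pitx1 was at 6.74, Tbx4 at 3.03 and Tbx5 at -3.78, with 1179 and 969 genes called and 480 tags. With the numbers crossed, an alternative added after the data were seen, 1684 and 1486 genes were called. Regrouping tags by M21 match was also added then. The p-values rest on 2 samples per limb type, with the spread of each gene moderated towards that of all genes. In the main gene-level fit this moderation weighed 16.0 prior against 2 residual degrees of freedom. The few counts of the low limb type limit each percentage.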
